A study of Mus musculus with 4 samples.

Results

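The haemoglobin genes described here are the adult alpha globins Hba-a1 and Hba-a2, the adult beta globins Hbb-bs and Hbb-bt, and Alas2, which encodes the red cell form of the enzyme that starts haem synthesis. They were taken by gene symbol and make up 5 of the 32285 genes in each deposited matrix. The genes were picked after earlier values from the same libraries were known, so their levels are given as a description and no test was run on them. RNA of single cells was sequenced from droplets of hippocampal and sensory cortical tissue, and each tissue and treatment gave 1 library, 4 in all. The mice were wild type (WT) and had either DOCA-salt, a mineralocorticoid given together with salt that makes mice hypertensive, or a sham treatment. Per the labels a group was 3 mice, no age is stated, and whether the cells of several mice went into 1 library is not stated. In 2 libraries, DOCA-salt of the cortex and sham of the hippocampus by their titles, the field for treatment names the opposite one. Groups follow the titles, and every direction between treatments rests on them. With 1 library per group, the spread between mice is unknown and no p-value is given. Each 95% interval below is exact (conditional binomial for a ratio of UMI sums, Clopper-Pearson for a share) and covers counting error only, not differences between mice, cells or preparations.

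Red cells carry oxygen on haemoglobin, a tetramer of a pair of alpha and a pair of beta chains, each holding a haem group. Globin messenger RNA is made in erythroid precursors and is still abundant in reticulocytes, the young red cells that have lost their nucleus, and it is then degraded as the cell matures. In brain tissue that is taken apart without washing out all blood, red cells come along with the vessels, and RNA released from broken cells can be captured in any droplet.

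Hba-a1 lies at chr11:32283511-32284465 on the plus strand and Hba-a2 at chr11:32296489-32297298, 12023 bases apart, in the GRCm38 build as annotated by GENCODE. Hbb-bs lies at chr7:103826534-103828096 and Hbb-bt at chr7:103812524-103813996, both on the minus strand and 12537 bases apart. Alas2 lies at chrX:150547375-150570638 on the plus strand. The 250 bases before the RefSeq start site (build GRCm38.p6) are shown because the 4 globins and Alas2 were concentrated in the same few barcodes. Capitals mark matches, on either strand, to the letters ATATAA, the TATA box, to the box named CCAAT, to the box named CACCC, or to GATAA, the core bound by GATA factors. The stretches are chr11:32283422-32283671 for Hba-a1, chr7:103827929-103828178 for Hbb-bs, chr7:103813924-103814173 for Hbb-bt and chrX:150547167-150547416 for Alas2, each read along the gene's own strand.
Hba-a1: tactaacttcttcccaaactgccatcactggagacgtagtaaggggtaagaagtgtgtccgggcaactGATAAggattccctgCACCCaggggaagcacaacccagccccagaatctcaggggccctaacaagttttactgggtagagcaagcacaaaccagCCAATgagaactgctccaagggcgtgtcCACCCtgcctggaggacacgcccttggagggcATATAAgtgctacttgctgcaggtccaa
Hbb-bs: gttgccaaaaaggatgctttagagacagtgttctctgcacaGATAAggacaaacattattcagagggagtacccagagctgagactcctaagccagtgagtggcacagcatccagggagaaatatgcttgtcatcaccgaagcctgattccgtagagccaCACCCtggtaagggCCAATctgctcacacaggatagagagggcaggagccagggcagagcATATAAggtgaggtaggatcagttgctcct
Hbb-bt: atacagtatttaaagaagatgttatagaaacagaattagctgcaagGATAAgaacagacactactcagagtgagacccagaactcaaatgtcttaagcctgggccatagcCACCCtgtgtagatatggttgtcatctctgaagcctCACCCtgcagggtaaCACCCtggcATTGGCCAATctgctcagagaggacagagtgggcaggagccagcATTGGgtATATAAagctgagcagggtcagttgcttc
Alas2: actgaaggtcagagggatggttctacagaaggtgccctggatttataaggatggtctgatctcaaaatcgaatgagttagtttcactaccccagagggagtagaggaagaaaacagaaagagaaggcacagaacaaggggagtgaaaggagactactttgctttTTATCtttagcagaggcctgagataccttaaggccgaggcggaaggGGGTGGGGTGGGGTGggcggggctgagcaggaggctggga

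The Hba-a2 window is the Hba-a1 window shifted by a few bases, and their alignment was the same in 97.6% of 253 columns. The Hbb-bs and Hbb-bt windows were the same in 70.9% of 261 columns. All 4 motifs were found in each of the 4 globin windows, with the ATATAA match starting 28, 31, 30 and 29 bases before the start site of Hba-a1, Hba-a2, Hbb-bs and Hbb-bt. Hbb-bs held 1 CACCC box and 1 CCAAT box, whereas Hbb-bt held 3 of each. The Alas2 window held 3 adjoining CACCC boxes on the opposite strand and 1 GATAA, and neither of the other motifs. Among 32851 RefSeq windows of this length, 9.10% held ATATAA, 33.8% CCAAT, 52.0% CACCC, 22.6% GATAA and 0.466% all 4. In Hbb-bt a forward and a reverse CCAAT adjoin, 75 and 80 bases before the start. A match is a description of the letters and not a site. Over the last 500 bases of the transcripts, which a 3' library reads, Hba-a1 and Hba-a2 were the same in 93.6% of aligned columns and Hbb-bs and Hbb-bt in 91.7%. Over the last 100 bases the pairs were the same in only 72.4% and 67.3%. How the counting assigned reads that fit both copies of a pair is not given in the sources used here, and the split between them is uncertain, so the sum of the 4 genes (the globins) leads the account.

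The globins held 939910 UMIs (unique molecular identifiers, each standing for 1 captured RNA molecule) in the hippocampus DOCA-salt library, 499571 in hippocampus sham, 442044 in cortex DOCA-salt and 382615 in cortex sham. Per 1000000 UMIs of the library, the unit written CPM below, this was 13874, 7119, 6615 and 5614. The hippocampus DOCA-salt library thus stood apart from the others, which lay close to one another. The libraries were of like size, with 11159 to 11402 barcodes and 66824217 to 70173987 UMIs each. Between 94 and 105 barcode sequences occurred in both libraries of a pair, and no such barcode was rich in globins in both. In every library Hbb-bs gave the most UMIs, at 470564, 257049, 223457 and 198732 in the same order. Hba-a1 had 237212, 124105, 108325 and 90482 UMIs and Hba-a2 161391, 87090, 74782 and 64897. Hbb-bt gave the fewest among the globins, with 70743, 31327, 35480 and 28504. Alas2, whose product makes haem and not globin, had 1982, 850, 945 and 733 UMIs and was found in 264, 161, 156 and 117 barcodes. All 5 genes were highest in the hippocampus DOCA-salt library.

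Globin RNA was spread over nearly all droplets and yet concentrated in few. At least 1 globin UMI was present in 94.3% of barcodes in hippocampus DOCA-salt, 86.1% in hippocampus sham, 86.7% in cortex DOCA-salt and 80.0% in cortex sham. Hbb-bs alone was seen in 87.1%, 74.0%, 74.5% and 65.5% of barcodes. Barcodes with 20% or more of their UMIs in the globins, called erythroid barcodes here, nevertheless held 93.2%, 89.8%, 90.7% and 92.1% of all globin UMIs. There were 190, 131, 90 and 92 of them. They are a range of a per-barcode share and not a cell type called from other genes. The lowest share inside the range was 20.2%, 21.7%, 27.7% and 20.1%, and the highest outside it 15.7%, 18.7%, 19.6% and 18.1%. Few barcodes lay near the threshold, with 2, 6, 2 and 2 between 15% and 20% and 3, 8, 0 and 2 between 20% and 25%. Of the Alas2 UMIs, 94.4%, 91.5%, 91.4% and 93.5% were in erythroid barcodes, and 83.7%, 77.1%, 86.7% and 80.4% of erythroid barcodes had at least 1.

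**Figure D1:**
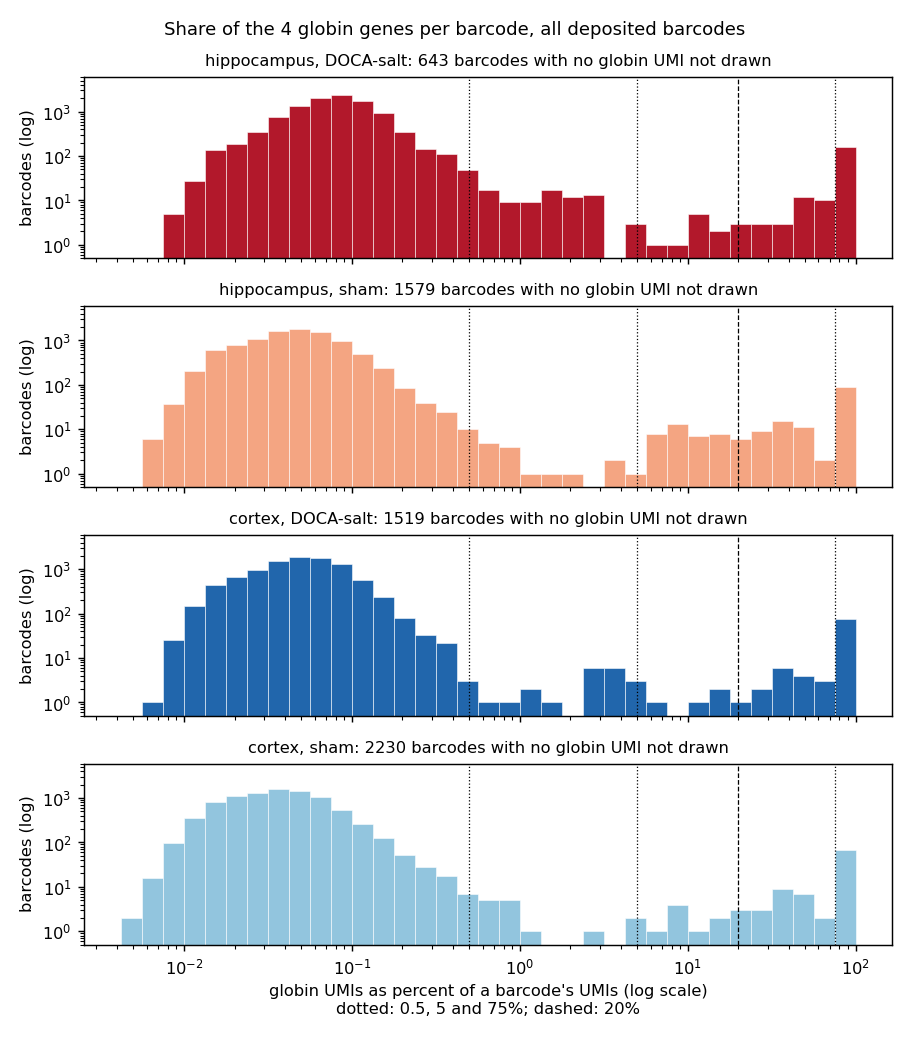
Number of barcodes (y axis, log scale) by the percent of a barcode's UMIs in the 4 globin genes (x axis, log scale) in each library, all deposited barcodes, with those at 0 left out. A large mode lies below 0.5%, a small one at 75% or more, and few barcodes lie between them.

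The shares fell into a large low mode, a small high mode and a thin bridge, drawn in the histograms of globin share. Below 0.5% lay 11065, 11205, 11286 and 11043 barcodes (97.4%, 98.3%, 99.0% and 99.0%), with a median of 4 globin UMIs in hippocampus DOCA-salt and 2 in each of the others. At 75% or more lay 159, 90, 75 and 69 barcodes, with a median of 4486, 3316, 4610 and 3384 globin UMIs. They held 79.5%, 63.2%, 73.9% and 67.4% of all globin UMIs. Outside the globins they had a median of only 514, 330, 648 and 340 UMIs, against 5882, 5763, 5584 and 5783 in the low mode. The bridge from 5% to 75% had 40, 80, 20 and 32 barcodes and held 14.7%, 30.6%, 18.5% and 26.6% of globin UMIs. Another 96, 19, 21 and 15 barcodes lay between 0.5% and 5%.

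The barcodes at 75% or more carried other genes of late red cells. Per UMI outside the globins they were compared with the low mode of the same library, for genes with at least 20 UMIs in them, with counts under 3 in the low mode taken as 3. Among all 1909 such genes, 80 (4.19%) were at least 2-fold higher in each of the 4 libraries and 5 (0.262%) at least 2-fold lower, with a median log2 ratio of -0.17. Because the barcodes were picked by their globin content, these values describe them and are no test. Of the other genes of haem synthesis, 3 of 5 measured were at least 2-fold higher in all 4 libraries, with a median log2 ratio of 2.98. Those were Fech, the enzyme that inserts iron into protoporphyrin to form haem (27.2, 24.6, 22.3 and 37.5-fold), Slc25a37, the mitochondrial iron importer of erythroid cells (23.0 to 49.0-fold), and Fam210b (4.86 to 9.34-fold). Urod and Tmem14c, at 0.836 to 5.48 and 0.469 to 1.06 times the low mode, did not reach this in every library. Another 8 genes of the list, Alas1 among them, had too few UMIs.

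Genes of the reticulocyte stage, when the last organelles and proteins are cleared, were among them. Of 10 measured in that list, 9 were at least 2-fold higher in all 4 libraries (median log2 ratio 4.35). The exception was Tmcc2, at 1.77 to 4.75-fold. Ube2l6, an enzyme that attaches ubiquitin-like proteins, was 612, 683, 705 and 813 times the low mode. Mkrn1, a ubiquitin ligase, was 39.1 to 77.6-fold higher, and Ubb, ubiquitin itself, 3.10 to 3.70-fold. Of the metabolic and antioxidant genes, 6 of 7 were higher (median log2 ratio 3.02), including Bpgm, which makes the regulator of haemoglobin's oxygen affinity (18.4 to 40.2-fold), Gpx1 (17.3 to 32.4-fold) and Prdx2 (3.69 to 6.96-fold). Car2 was not, at 0.640 to 1.02-fold. In the membrane list, 3 of 4 were higher (median log2 ratio 7.72), among them Epb41 at 13.5 to 59.9-fold and Slc4a1. Slc4a1, the anion exchanger, had 8, 5, 5 and 5 UMIs in these barcodes and 7, 2, 3 and 5 in all of the low mode. Slc2a1, a glucose transporter found in endothelium, ranged from 0.436 to 1.27-fold.

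Other globins were nearly silent. Of 9 in the files, only the theta-type genes Hbq1a and Hbq1b passed 20 UMIs, with 42 and 21 UMIs over the 4 libraries in barcodes at 75% or more. Hbq1a had 0 UMIs in the low mode of every library. The iron and haem handling list had 1 of 4 measured genes higher, Ftl1, a ferritin chain, at 4.87 to 5.44-fold. The other ferritin chain, Fth1, stood at 1.04 to 1.15-fold. Of the erythroid transcription factors only Lmo2 reached 20 UMIs, at 0.787 to 2.43-fold, and Gata1, Klf1 and Tal1 did not. No platelet gene of 6 passed that floor. Counting all non-member genes by the ratio of CPM in erythroid to all other barcodes, those near the top among 23 that qualified included Ube2l6 (71.9-fold), Isg20 (56.8), Rec114 (29.2), Ube2c (11.5), Cd24a (11.3), Rsad2 (7.25), Mkrn1 (5.77), Slc25a39 (4.12) and Isca1 (4.05).

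The make-up of the globin RNA differed between the high mode and the low mode. In barcodes at 75% or more, the alpha genes gave 43.0%, 42.0%, 41.7% and 40.7% of globin UMIs, with the libraries in the order used above. In the low mode they gave 32.8%, 32.6%, 32.1% and 31.5%. The widest interval of the low mode was that of cortex sham, 30.9% to 32.1%, so in each library the difference was larger than counting error. Hbb-bt gave 13.3%, 10.9%, 14.0% and 13% of beta globin UMIs at 75% or more and 10.3%, 9.09%, 10.6% and 10.5% in the low mode. Hba-a2 gave 40.6%, 41.2%, 40.9% and 41.9% of alpha UMIs at 75% or more and 40.3%, 40.6%, 40.1% and 41.9% in the low mode, so the ratio of the alpha copies did not show this shift. Alas2 stood at 2.16, 1.82, 2.18 and 2.11 UMIs per 1000 globin UMIs at 75% or more and at 1.93, 1.67, 2.34 and 1.81 in the low mode, with overlapping intervals in every library.

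**Figure D2:**
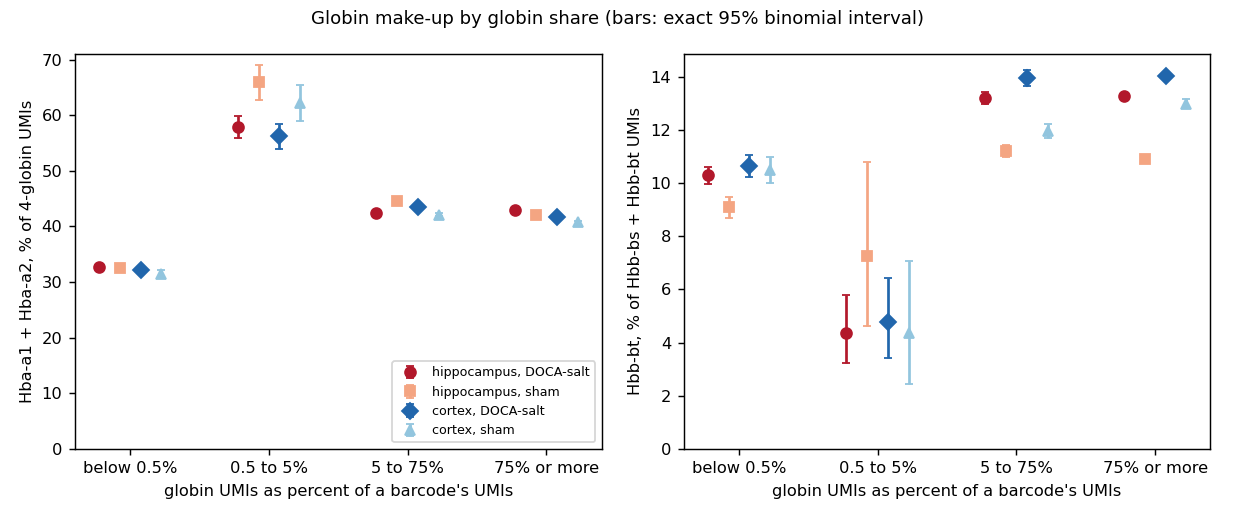
Percent of globin UMIs from the alpha genes (left) and percent of beta globin UMIs from Hbb-bt (right) by the globin share of the barcode, 1 point per library. In all 4 libraries the alpha percent is lowest below 0.5% and highest from 0.5% to 5%, where Hbb-bt is lowest.

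The make-up was also compared between marker-gated classes, which are defined further on. Among barcodes under 1% globins of hippocampus DOCA-salt, alpha genes gave 32.9% in microglia-gated, 32.5% in astrocyte-gated, 32.5% in oligodendrocyte-gated, 33.3% in endothelial-gated and 34.5% in pericyte-gated barcodes, with overlapping intervals. In both sham libraries the endothelial-gated barcodes stood higher than the microglia-gated, at 35.7% (33.5 to 37.9) against 32.2% (31.0 to 33.4) in hippocampus and 38.5% (35.8 to 41.3) against 31.6% (30.3 to 32.9) in cortex. In cortex DOCA-salt the endothelial-gated stood lower, at 30.9% (28.5 to 33.4) against 32.8% (31.7 to 33.9), with overlapping intervals. The pericyte-gated barcodes of hippocampus sham were lowest, at 19.1% (11.3 to 29.1) of only 84 UMIs. The barcodes between 0.5% and 5% differed from both modes. Alpha genes gave 57.9%, 66.0%, 56.2% and 62.3% of their globin UMIs, and Hbb-bt only 4.37%, 7.26%, 4.76% and 4.35% of the beta ones. They held 1, 0, 2 and 0 Alas2 UMIs. In hippocampus DOCA-salt these 96 barcodes were shallow, with a median of 904 UMIs, and 41.7% of them passed the oligodendrocyte gate and 3.13% the endothelial gate. In the other 3 libraries 46.7% to 57.9% passed the endothelial gate. The microglia gate was passed by 0% in hippocampus sham, 47.6% in cortex DOCA-salt and 26.7% in cortex sham. In cortex DOCA-salt this was the same share as for the endothelial gate.

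The globin-rich barcodes themselves were not uniform, as the plot of single barcodes shows. In hippocampus DOCA-salt, Hbb-bt gave 3.03% (2.77 to 3.30) of beta UMIs in the 38 barcodes with 500 to 2000 UMIs, 9.33% in the 54 with 2000 to 6000 and 15.3% (15.2 to 15.4) in the 67 with 6000 or more. The same order held in hippocampus sham (4.81%, 7.22% and 13.9%), cortex DOCA-salt (3.80%, 10.5% and 16.1%) and cortex sham (3.54%, 10.3% and 16.2%). The alpha share went the other way, from 51.7%, 50.3%, 51.2% and 45.8% in the shallowest class to 41.7%, 40.6%, 40.7% and 39.6% in the deepest. Alas2 rose from 0.581, 0.705, 0.944 and 0.554 UMIs per 1000 globin UMIs to 2.32, 2.10, 2.45 and 2.38. Across single barcodes, Spearman's rho between the Hbb-bt share and total UMIs was 0.79 (159 barcodes), 0.71 (90), 0.77 (75) and 0.80 (69). With the number of other erythroid marker genes detected it was 0.71, 0.73, 0.71 and 0.87. These points share a library, and the number of markers detected itself depends on depth. Hba-a2 as a share of alpha moved little with depth, from 39.5% to 40.2% in the shallowest class to 40.7% to 42.4% in the deepest. The shallow barcodes at 75% or more resembled those between 0.5% and 5% in being rich in alpha globin and poor in Hbb-bt and Alas2.

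**Figure D3:**
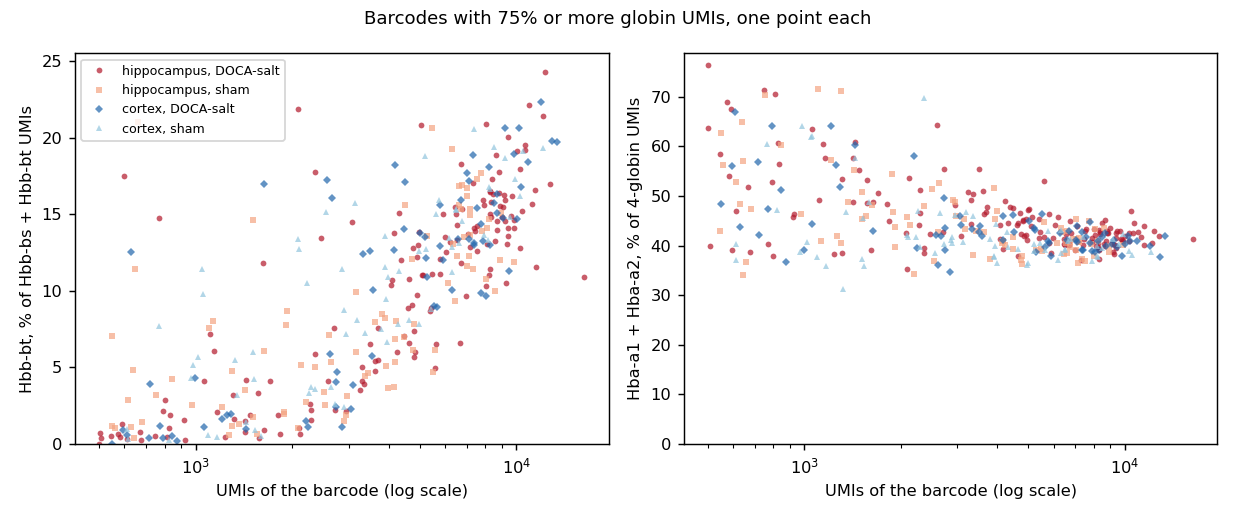
Each point is 1 barcode with 75% or more globin UMIs, by its total UMIs (x axis, log scale), against the percent of beta globin UMIs from Hbb-bt (left) and the percent of globin UMIs from the alpha genes (right). Hbb-bt rises with depth in all 4 libraries, and the alpha percent falls.

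Classes of other cells were gated on marker genes that hold no haemoglobin gene. A barcode passed the gate of a class if at least 3 of its 6 markers were detected and their share of the non-globin UMIs was at or above the library mean, and it was placed in a class if it passed that gate alone. Droplets with markers of several classes were set apart, and those with pericyte and endothelial markers alone were kept as a class of their own. No doublet caller was run. Barcodes with under 300 genes or over 20% mitochondrial UMIs were left out here, which removed 119, 163, 48 and 73 barcodes. Of these, 69, 54, 29 and 39 were erythroid barcodes, which have few genes. Markers held out of the gates were at least 2-fold higher in every pericyte, endothelial, microglia, astrocyte and oligodendrocyte class in each library.

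Pericytes, the contractile cells that wrap brain capillaries, held little globin RNA when gated on their own markers alone. The 120, 71, 107 and 58 such barcodes had 319, 84, 135 and 50 globin UMIs, or 1186 CPM in hippocampus DOCA-salt (interval 1060 to 1324), 526 in hippocampus sham (419 to 651), 515 in cortex DOCA-salt (432 to 609) and 397 in cortex sham (294 to 523). The median barcode held 2, 1, 1 and 1 globin UMIs. Alas2 had 0 UMIs in the pericyte-gated barcodes of all 4 libraries. At least 1 globin UMI was present in 84.2%, 63.4%, 59.8% and 56.9% of them at a median depth of 2243, 2062, 2187 and 1948 UMIs. Oligodendrocyte-gated barcodes, taken as cells outside the vessels and the blood, had one in 96.5%, 89.5%, 85.9% and 79.5% at 6469, 6495, 5583 and 5837 UMIs. After thinning to 1000 UMIs, which left 106, 62, 96 and 46 pericyte-gated barcodes, the shares were 57.5%, 40.3%, 37.5% and 43.5% against 49.4%, 31.8%, 34.1% and 27.2% in oligodendrocyte-gated ones. Microglia-gated barcodes stood at 54.7%, 36.6%, 37.9% and 28.2%, and astrocyte-gated ones at 58.3%, 40.4%, 40.5% and 30.7%. The astrocyte-gated shares were thus above the pericyte-gated ones in every library but cortex sham. Per barcode under 1% globins, pericyte-gated droplets stood at 877, 526, 515 and 397 CPM and microglia-gated ones at 798, 446, 482 and 328.

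Most globin RNA under pericyte markers lay elsewhere. Taking every kept barcode that passed the pericyte gate, whatever else it held, 497, 456, 385 and 306 barcodes had 15613, 18016, 10613 and 8274 CPM. Only 7, 9, 4 and 5 of these were erythroid barcodes, and they held 92.1%, 78.4%, 82.4% and 75.1% of the globin UMIs. The barcodes with pericyte markers alone held 0.789%, 0.171%, 0.669% and 0.347%. Those with pericyte and endothelial markers and under 20% globins, 287, 235, 219 and 161 in number, stood at 1365, 4617, 837 and 2965 CPM. Within them 2, 7, 2 and 3 barcodes of 1% or more held 40.1%, 89.9%, 39.7% and 85.4% of the globin UMIs. Without these few, the class stood at 822, 485, 511 and 442 CPM, close to the pericyte-gated values under 1%.

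Endothelial cells, which line the vessels, showed the same pattern on a larger scale. The 944, 839, 660 and 703 endothelial-gated barcodes under 20% globins stood at 1733 CPM (1693 to 1775), 2392 (2341 to 2445), 1619 (1572 to 1668) and 1192 (1153 to 1232). The median barcode held 3, 2, 2 and 1 globin UMIs. Only 6, 11, 7 and 4 barcodes of 1% or more held 47.7%, 77.5%, 67.1% and 65.5% of the globin UMIs, and without them the class stood at 917, 548, 541 and 415 CPM. In the other large classes, barcodes under 1% stood at 700 to 856 CPM in hippocampus DOCA-salt, 387 to 473 in hippocampus sham, 418 to 506 in cortex DOCA-salt and 291 to 349 in cortex sham (microglia, astrocytes and oligodendrocytes). A similar case outside the vessels was the T or NK class of hippocampus sham, where 2 of 29 barcodes held 94.5% of 1300 globin UMIs and set its 10523 CPM. Without them it stood at 635 CPM. Among classes of 20 or more barcodes, the endothelial-gated one was the highest under 1% globins in no library. The highest were neutrophil-gated in hippocampus DOCA-salt (1195 CPM) and choroid plexus-gated in hippocampus sham (644). In cortex they were border macrophage-gated after DOCA-salt (556) and those with pericyte and endothelial markers after sham (442).

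**Figure D4:**
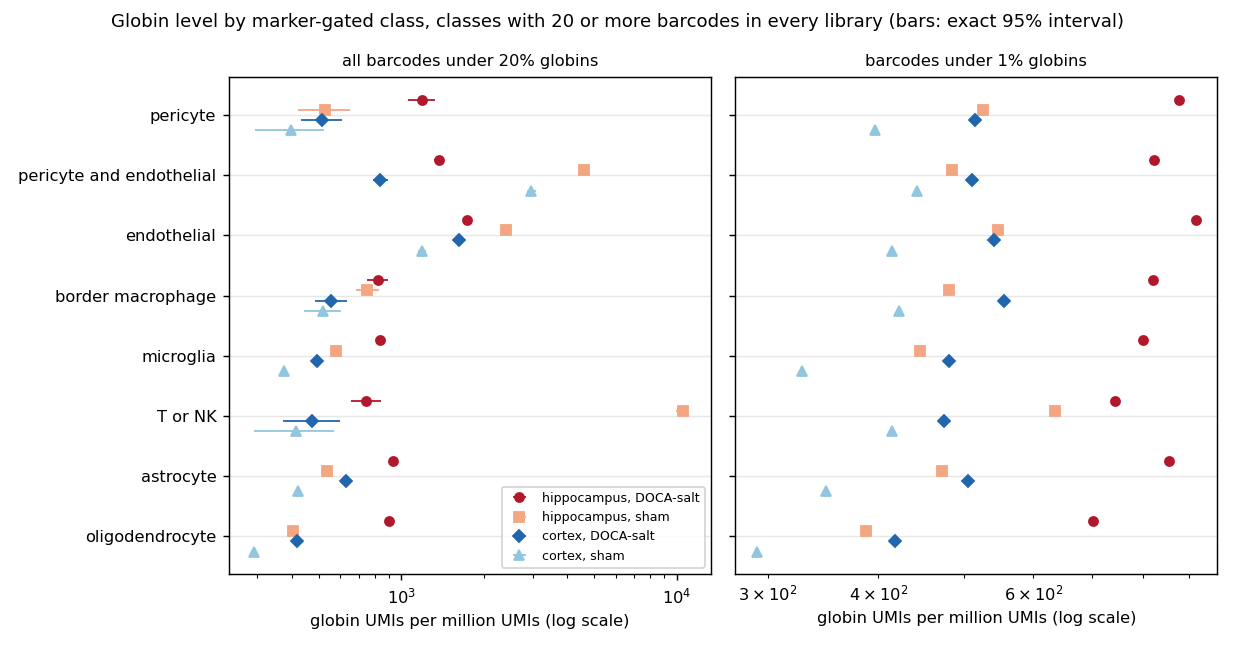
Globin level in CPM (log scale) by marker-gated class and library, for all barcodes under 20% globins (left, with exact 95% intervals) and for barcodes under 1% globins (right). On the right the classes of a library draw together, and hippocampus DOCA-salt is the highest of the 4 in every class.

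Endothelial markers were more frequent among the barcodes of the bridge than in the low mode, where most barcodes that passed the endothelial gate lay. In barcodes with 5% to 75% globins, 17 of 40 (42.5%, interval 27.0 to 59.1), 45 of 80 (56.2%, 44.7 to 67.3), 12 of 20 (60%, 36.1 to 80.9) and 23 of 32 (71.9%, 53.3 to 86.3) passed the endothelial gate. In the low mode 12.8%, 11.5%, 8.75% and 9.61% did, below every interval. Pericyte markers were present in 20%, 21.2%, 25% and 28.1% of the bridge and in 4.31%, 3.90%, 3.35% and 2.68% of the low mode. Most of these bridge barcodes also passed the endothelial gate. Either gate was passed by 19, 46, 12 and 23 bridge barcodes, and the endothelial gate by 17, 45, 12 and 23. Astrocyte markers, by contrast, were in 10%, 6.25%, 25% and 9.38% of the bridge and 16.2%, 9.03%, 36.3% and 32.4% of the low mode. With globins left out, 12, 10, 10 and 10 of 12 endothelial marker genes were lower in the endothelial droplets of the bridge than in endothelial-gated barcodes. These sets are unlike. The bridge droplets passed the endothelial gate whatever other markers they held and were not filtered, whereas the endothelial-gated barcodes passed that gate alone. The 12 genes include the 6 gate markers, and no such count was made over all genes, so nothing is read from it. Kdr, a receptor for vascular growth factor, stood at 81.7 against 280 CPM in hippocampus DOCA-salt and at 305 against 238 in hippocampus sham. Cldn5, the tight junction protein of brain endothelium, stood at 3942, 3270, 3219 and 2782 CPM, taken over non-globin UMIs, in them and at 4454, 4151, 3850 and 3835 in endothelial-gated barcodes. The median barcode of the bridge had 4812, 4530, 7156 and 5866 non-globin UMIs, of the same order as in the low mode. At 75% or more, only 9, 2, 3 and 0 barcodes passed the endothelial gate (5.66%, 2.22%, 4% and 0%, where 0 of 69 allows up to 5.21%). Few genes can be detected there beside the globins, and 74.2%, 68.9%, 69.3% and 76.8% of those barcodes passed no gate. Whether a bridge droplet held 1 cell or several was not tested.

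**Figure D5:**
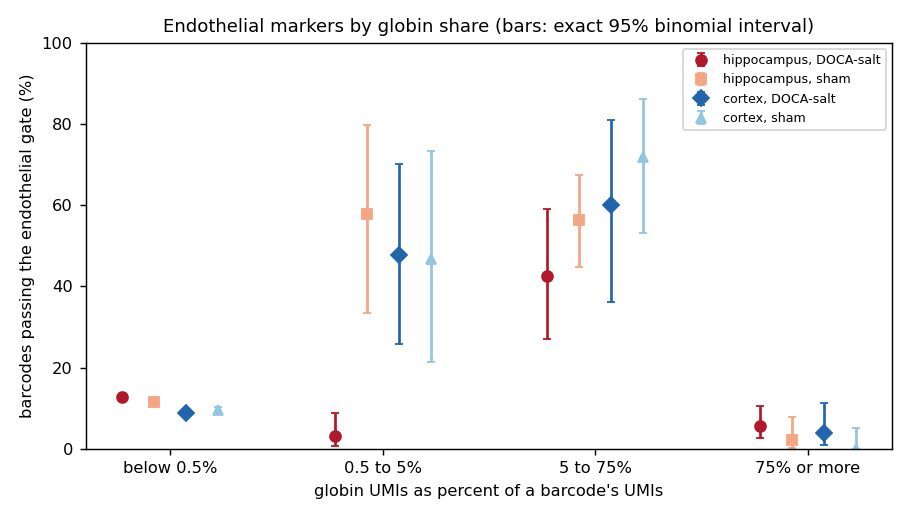
Percent of barcodes that passed the endothelial gate (y axis) by the globin share of the barcode (x axis) in each library, with exact 95% binomial intervals. From 5% to 75% globins the 4 libraries lie between 42.5% and 71.9%, against 8.75% to 12.8% below 0.5%.

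Between treatments, globin RNA was higher in the DOCA-salt library of each tissue, and by more in hippocampus. Over all kept barcodes the hippocampus stood at 12184 CPM after DOCA-salt and 5768 after sham, a ratio of 2.11 (2.10 to 2.12). In cortex it was 5981 and 4542 CPM, a ratio of 1.32 (1.31 to 1.32). In hippocampus all 5 genes were at least 2-fold higher, where 4.41% of 16876 genes with 50 or more UMIs were and 1.97% were at least 2-fold lower. Over all deposited barcodes, which include the 69 and 54 erythroid barcodes that the filter removed, only Hbb-bt (2.34) and Alas2 (2.42) passed 2-fold, and Hba-a1, Hba-a2 and Hbb-bs stood at 1.98, 1.92 and 1.90. Over the kept barcodes, to which the rest of this paragraph refers, Hbb-bt was 2.43 times as high (2.40 to 2.46) and Alas2 2.51 times (2.30 to 2.74). Hba-a1, Hba-a2 and Hbb-bs lay between 2.06 and 2.15 there. The members' median log2 ratio was 1.1, against 0.09 over all genes. In cortex none of the 5 reached 2-fold, where 2.12% of 16471 genes did and 0.559% were as much lower. Their ratios ran from 1.28 for Hbb-bs to 1.5 for Alas2. Among the sham libraries the hippocampus was 1.27 times the cortex (1.26 to 1.28). The earlier results by which the genes were picked include this contrast, so nothing is read from these counts.

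The share of erythroid barcodes was higher after DOCA-salt in hippocampus, and in cortex the difference lay within counting error. In hippocampus 121 of 11241 kept barcodes were erythroid after DOCA-salt (1.08%, interval 0.894 to 1.29) and 77 of 11231 after sham (0.686%, 0.541 to 0.856), a ratio of 1.57 (1.17 to 2.12). In cortex there were 61 of 11354 (0.537%) and 53 of 11086 (0.478%), a ratio of 1.12 (0.765 to 1.66). The high mode and the bridge were compared over all deposited barcodes, not over the kept ones. In hippocampus they went opposite ways, and in cortex both ratios lay within counting error. Barcodes at 75% or more were 1.77 times as frequent in hippocampus DOCA-salt as in sham (1.36 to 2.32) and 1.06 times in cortex (0.757 to 1.5). Of these barcodes, the filter kept 94 after DOCA-salt and 38 after sham in hippocampus, and 47 and 31 in cortex. Bridge barcodes were 0.501 times as frequent (0.334 to 0.742) in hippocampus and 0.612 times (0.332 to 1.1) in cortex. All deposited barcodes of any globin share that passed the endothelial gate, whatever else they held, were also counted. Of these, 17 of 1445 lay in the bridge after DOCA-salt and 45 of 1349 after sham in hippocampus, a ratio of 0.353 (0.189 to 0.628). In cortex these were 12 of 1012 and 23 of 1091, a ratio of 0.562 (0.255 to 1.18). Over kept barcodes again, the threshold was set at 5% in place of 20%, which takes the bridge in. The hippocampus ratio of erythroid shares was then 1.12 (0.865 to 1.45), and with 50% it was 2.58 (1.79 to 3.80).

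In the low mode, over all deposited barcodes, the globin level was higher in the DOCA-salt library of each tissue. It was 782 CPM after DOCA-salt and 433 after sham in hippocampus, a ratio of 1.81 (1.78 to 1.83), and 478 and 327 in cortex, a ratio of 1.46 (1.44 to 1.49). In hippocampus, Hbb-bt (2.04) and Alas2 (2.08, interval 1.47 to 2.99) passed 2-fold and the other 3 members did not, where 4.54% of 16860 genes did and 1.96% were as much lower. In cortex none of the 5 did, with ratios from 1.43 for Hba-a2 to 1.89 for Alas2, where 2.14% of 16456 genes did and 0.559% were as much lower. Among kept barcodes under 1% globins the hippocampus ratio was 1.79 in microglia-gated, 1.81 in astrocyte-gated, 1.81 in oligodendrocyte-gated, 1.70 in pericyte and endothelial, 1.71 in border macrophage and 1.67 in both pericyte-gated and endothelial-gated barcodes. In cortex the ratio was 1.47, 1.45 and 1.43 in microglia, astrocytes and oligodendrocytes, 1.32 in border macrophages, 1.30 in endothelial-gated barcodes, 1.30 with an interval that includes no change (0.932 to 1.83) in pericyte-gated barcodes, and 1.16 (1.02 to 1.31) where pericyte and endothelial markers were joined. Cortex classes of few barcodes went both ways after DOCA-salt. The level was lower in neutrophil-gated barcodes, at 514 against 541 CPM (9 and 8 barcodes). It was also lower in smooth muscle-gated (481 against 805, 3 and 6) and monocyte- or dendritic-gated ones (303 against 436, 3 and 2). Higher levels were found in B-gated (528 against 369, 31 and 12) and oligodendrocyte precursor-gated barcodes (595 against 303, 8 and 8). The same held for immature neuron-gated (423 against 338, 18 and 10), ependymal-gated (590 against 187, 9 and 8) and T or NK-gated ones (475 against 414, 40 and 23). Depth was looked at over all deposited barcodes under 5% globins. These take in the barcodes from 0.5% to 5%, with a median of 904 UMIs in hippocampus DOCA-salt, so the values are not those of the low mode alone. The summed level followed depth there. In hippocampus DOCA-salt it fell from 2274 CPM in barcodes of 500 to 1000 UMIs to 738 at 16000 or more. In cortex sham it fell from 772 to 279 CPM, and the summed level of the other libraries was also highest in the shallowest barcodes. The median barcode of 500 to 1000 UMIs, by contrast, stood at 0 CPM in hippocampus sham and both cortex libraries. In hippocampus DOCA-salt it stood at 1422 CPM. The part of RNA from outside the cell in these levels was not tested.

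For pericytes the direction between treatments depended on which barcodes were counted. With pericyte markers alone, the hippocampus ratio was 2.26 (1.77 to 2.90), and 2 of 3 members with 50 or more UMIs passed 2-fold, where 1.64% of 1651 genes did and 1.03% were as much lower. The 3 barcodes of 1% or more in the DOCA-salt library held 27.3% of its globin UMIs, and without them the ratio was 1.67 (1.29 to 2.17). Without them Hba-a1 had 51 UMIs against 8, a ratio of 3.85 (1.81 to 9.39), and Hbb-bs 132 against 62, a ratio of 1.29 (0.944 to 1.77) that lies within counting error, in 117 and 71 barcodes. In cortex the ratio was 1.30 (0.932 to 1.83), and the 1 member with 50 or more UMIs, Hbb-bs, did not pass 2-fold, where 1.24% of 1449 genes did and 0.552% were as much lower. In the barcodes with both pericyte and endothelial markers it was the reverse, at 0.296 (0.282 to 0.310) in hippocampus and 0.282 (0.263 to 0.303) in cortex. All 4 globins were at least 2-fold lower there in each tissue, where 1.23% of 7833 and 0.590% of 6614 genes were (1.12% and 0.711% were as much higher), and Alas2 had 3 and 2 UMIs in hippocampus and 1 and 3 in cortex. That difference rested on the 2 against 7 and the 2 against 3 barcodes of 1% or more. Without them the ratios were 1.70 (1.55 to 1.86) and 1.16.

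In endothelial-gated barcodes the ratio was 0.725 (0.702 to 0.748) in hippocampus and 1.36 (1.30 to 1.42) in cortex, and no member of 4 tested passed 2-fold in either tissue (1.54% and 0.946% of genes were higher, 1.20% and 0.490% lower). In hippocampus Hba-a1, Hba-a2 and Hbb-bs were at 0.688 to 0.722 times the sham level, while Hbb-bt stood at 1.23 (1.02 to 1.49). Without the 6 and 11 barcodes of 1% or more, the hippocampus ratio was 1.67 (1.58 to 1.77), the opposite direction. In cortex it was 1.30 (1.21 to 1.41) without the 7 and 4. Every one of these contrasts compares a pair of libraries, so differences between treatments, mice and preparations cannot be told apart.

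The genes most like the globins across classes were found by Pearson's correlation of log2(CPM + 1) over class and library points. With the erythroid barcodes among 45 points these included Hbq1a (0.94), Slc4a1 (0.93), Apol11b (0.91) and Trim10 (0.90), and the 4 erythroid points set this order. Over the 41 points without erythroid barcodes they were Foxf1 (0.72), D730045B01Rik (0.71), Car15 (0.70), Adh1 (0.69) and B3gnt3 (0.69). These points share libraries and depth, and the values are descriptions.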

How the data were processed

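Single cells were captured with the SeekOne DD 3' kit, per the labels' protocols. The values are UMI counts per gene and barcode, deposited by the authors as 1 matrix per library and used as deposited. The tools fastp, STAR, Subread and Seurat and the GRCm38 build are named per the submitters' processing notes, and their versions are not given in the sources used here. Depth was 66824217 to 70173987 UMIs per library, with a median of 5586 to 5856 per barcode and at least 500.

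Barcodes under 300 genes or over 20% mitochondrial UMIs were left out, except where all deposited barcodes are named. Erythroid barcodes had 20% or more globin UMIs. The classes rest on 6 markers each for 16 classes, and the rule of the gate was set after the data were seen. Counts were summed per library and class, and genes with 50 or more UMIs entered the 2-fold counts. Named genes were the members, the genes of the lists, the 10 genes highest in erythroid barcodes and the 5 most like the globins, of which some are not reported here. With 1 library per group no test between groups was run. The members and lists were chosen with earlier results of these data known. The scripts were tested on simulated data and used Python 3.11.15, numpy 2.4.6, scipy 1.17.1, pandas 2.3.3 and matplotlib 3.10.9. Alternatives were the filters, the threshold, the gate, the weighting and the depth.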

Additional observations from a re-analysis of the deposited data

Results flagged for a closer look

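The globin level of endothelial-gated barcodes moved in opposite directions in the tissues. After DOCA-salt it was 0.725 times the sham level in hippocampus and 1.36 times in cortex, with 1 library in each group. The difference between the tissues was not tested, and the hippocampus ratio was 1.67 among barcodes under 1% globins.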

How the results depend on the processing

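Ratios are DOCA-salt over sham. Over all barcodes in hippocampus (2.11) the ratio was 1.95 with no filter, 2.13 with globins out of the total, 1.89 with equal weight per barcode, 2.66 without the top 1% of barcodes by globin UMIs, 2.23 without the top 5% by UMIs, 1.98 thinned to 1000 UMIs and 1.80 under 1% globins. In cortex (1.32) it was 1.18 with no filter, 1.25 with equal weight, 1.47 and 1.18 without those top 1% and 5%, 1.24 thinned, 1.29 without Hba-a1 and Hba-a2 and 1.45 under 1% globins. The hippocampus share of erythroid barcodes (1.57) was 1.12 and 2.58 with thresholds of 5% and 50%. The hippocampus pericyte ratio (2.26) was 1.41 with a gate of 4 markers, 1.71 without Hba-a1 and Hba-a2 and 1.67 under 1% globins. The hippocampus endothelial ratio (0.725) turned to 1.45 with the 5% threshold, 1.48 without the top 1% and 1.67 under 1% globins, and was 0.481 with 50%, 0.593 without the top 5% and 0.753 thinned. The cortex endothelial ratio (1.36) turned to 0.743 with the 50% threshold and was 1.54 with 5%, 1.19 with the stricter gate, 1.43 without the top 1% and 1.63 without the top 5%. For cortex, all 4 alternatives for the erythroid share (0.957 to 1.39) and all 11 for pericytes (1.01 to 1.46) stayed within the counting interval. The setting under 1% globins was chosen after seeing the data, and the cause of these changes was not tested. No paired analysis was possible because the labels carry no replicate numbers and each group is 1 library. Class sizes limit the pericyte values, which rest on 50 to 319 globin UMIs.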
